A study of Homo sapiens with 6 samples.

Results

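The core machinery of mitochondrial fusion and fission was followed here through 10 genes in 6 RNA-seq libraries, 3 labelled STAT6 and 3 labelled Mock. The genes were taken by symbol: Mfn1, Mfn2, Opa1, Dnm1l, Fis1, Mff, Mief1, Mief2, Oma1 and Yme1l1. All 10 symbols were among the 38986 rows of the count tables, and all 10 were among the 12938 genes with enough counts to be tested. The labels describe both groups as mCherry-positive 293T cells, a human embryonic kidney line, with STAT6 overexpression in one group and the genotype WT, named Mock, in the other. mCherry is a red fluorescent protein that marks the cells in both groups, and STAT6 is a transcription factor of interleukin signalling. The promoter that drives STAT6, whether each group is 1 clone, and whether the numbered libraries came from separate cultures are not given in the labels. The p-values therefore reflect only how far these libraries vary, and that variation may be technical.

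Mitochondria join and divide continuously. The mitofusins MFN1 and MFN2 are outer membrane GTPases that tether and fuse the outer membranes, and the GTPase OPA1 fuses the inner membranes. The inner membrane proteases OMA1 and YME1L1 cleave OPA1 and so set its balance of long and short forms. Division is carried out by DRP1, the product of Dnm1l, a cytosolic GTPase that assembles into rings on the outer membrane. The receptors MFF, MIEF1 and MIEF2 recruit DRP1, and FIS1 is an outer membrane protein also tied to division. In pigment cells MFN2 is further known for its presence at contacts between melanosomes and mitochondria. The series title concerns MFN2 and fusion, so the level of each transcript of this machinery in both groups is what the comparison addresses.

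The libraries went against their labels in cell type and in the level of mouse Stat6, and this holds for every comparison that follows. The rows carry mouse gene symbols: only 17 of the 38986 equalled a human symbol in the same case, none of the 10 genes was listed in human capitals, and 0 rows were named STAT6 in capitals or held mCherry in the name. Mouse Stat6 was at 35.1, 33.6 and 32.1 counts per 1000000 (CPM) in the libraries labelled STAT6 and at 95.2, 95.5 and 92.8 CPM in those labelled Mock, so it was lower where the label says overexpression. A human STAT6 transgene would have no row of its own, so the level of one was not measured. The same holds for mCherry, so the lack of such a row does not show whether the cells carried it. All 12 pigment cell markers were detected, led by Tyrp1, and their summed level was 17399 to 17555 CPM in the libraries labelled STAT6 and 15075 to 15444 CPM in those labelled Mock. Of these 12 markers 6 were called higher and 4 lower: Dct was at 6161 to 6195 against 4176 to 4389 CPM, whereas Tyr was at 28.2 to 29.7 against 297 to 307 CPM and Trpm1 at 10.9 to 12.8 against 33.8 to 35.9 CPM. The 9 markers of kidney epithelium and its progenitors summed to 3.53 to 4.23 CPM against 0.259 to 0.392 CPM, with Pax8 and Six2 at 0. Most of the sum in the libraries labelled STAT6 was Lhx1 alone, at 3.41, 3.04 and 2.94 CPM against 0 in each library labelled Mock. The summed markers of leukocytes (3.77 to 4.23 against 1.25 to 1.52 CPM, with Adgre1 and Cd3e at 0) and of endothelium (0.588 to 1.03 against 0.0431 to 0.262 CPM, with Cdh5 and Emcn at 0) were at a few CPM or less. The 7 fibroblast markers summed to 81.9 to 88.0 against 35.1 to 36.0 CPM and did not move as one. Col1a1 was at 75.2 to 81.1 against 4.47 to 5.30 CPM, while Col1a2 (2.01 to 2.29 against 12.3 to 15.1 CPM) and Pdgfrb (3.09 to 3.97 against 15.1 to 17.2 CPM) were lower. Malat1, a nuclear noncoding RNA, was at 424 to 544 CPM against 135 to 177 CPM. The part of these differences in the results on fusion and fission genes was not tested. Directions below follow the labels alone, "higher" and "lower" refer to the libraries labelled STAT6 relative to those labelled Mock, and in bulk RNA fewer cells of a type cannot be told apart from less RNA per cell.

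Of the 10 genes, 4 were higher, 3 were lower and 3 did not pass the test. The test was edgeR's quasi-likelihood test with Benjamini-Hochberg adjustment over all 12938 genes, and a gene was called at an adjusted p under 0.05. Higher were Mfn2, Dnm1l, Fis1 and Mff, and lower were Mfn1, Opa1 and Oma1. The groups did not overlap in CPM for the same 7 genes. Among all genes tested, 72.6% were called (35.8% higher and 36.8% lower) and 74.6% did not overlap, so 7 of 10 is close to the share of all genes and does not set the machinery apart. None of the 10 changed by as much as 1.5-fold, a size reached together with an adjusted p under 0.05 by 29.1% of all genes tested. Their median log2 fold change was 0.10, beside -0.00 for all genes, and their median absolute log2 fold change was 0.25, beside 0.35. Together the 10 genes held 0.0857% to 0.0872% of the counts of each library.

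**Figure D1:**
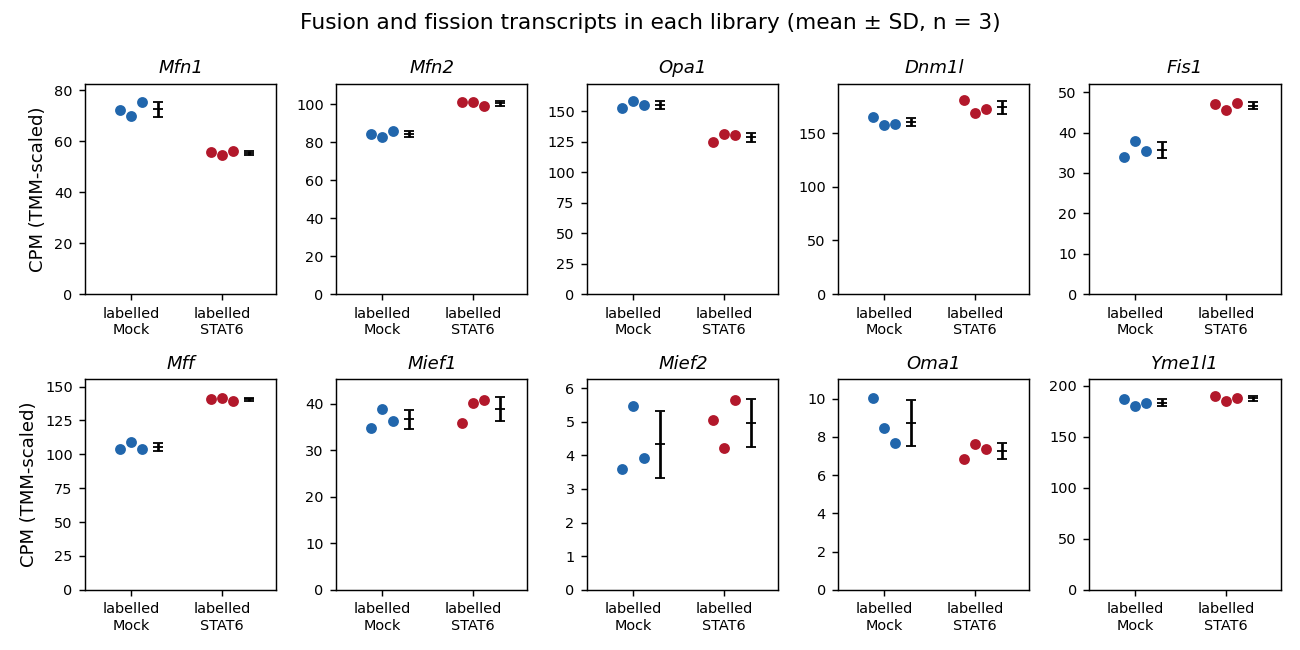
TMM-scaled CPM of each gene in each library (points) for libraries labelled Mock (blue) and STAT6 (red), with the mean and SD of 3 libraries beside them; each axis starts at 0 and has its own scale. Mfn1 and Opa1 are lower and Mfn2, Fis1 and Mff higher in all 3 libraries labelled STAT6, while the groups overlap for Mief1, Mief2 and Yme1l1.

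The outer membrane fusion genes moved in opposite directions. Mfn2, which the series title names, stood at 101, 101.3 and 98.9 CPM in STAT6 replicates 1 to 3 and at 84.4, 82.9 and 85.7 CPM in Mock replicates 1 to 3. Every library labelled STAT6 was above every library labelled Mock, at a mean of 100.4 ± 1.27 against 84.3 ± 1.39 CPM (SD, n = 3 each). This was a 1.19-fold rise, a log2 fold change of 0.25 with a 95% interval of 0.18 to 0.33 (edgeR, adjusted p = 2.5e-07). Against a change of at least 1.2-fold the call of Mfn2 was lost (glmTreat in edgeR, adjusted p = 0.56).

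Mfn1, the paralog of Mfn2 with which it forms mixed as well as like-with-like tethers, went the other way. It was at 55.6, 54.4 and 56.1 CPM in the libraries labelled STAT6 and at 72.2, 69.7 and 75.4 CPM in those labelled Mock, with no overlap. The means were 55.4 ± 0.903 and 72.4 ± 2.81 CPM. Mfn1 was thus 1.31-fold lower, with a log2 fold change of -0.39 and a 95% interval of -0.48 to -0.30 (edgeR, adjusted p = 4.73e-10). Its call also held against a change of at least 1.2-fold (glmTreat, adjusted p = 0.00168).

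Within a library, the ratio of Mfn2 to Mfn1 counts does not depend on how libraries are scaled. It was 1.82, 1.86 and 1.76 in the libraries labelled STAT6 and 1.17, 1.19 and 1.14 in those labelled Mock. These ratios are not per transcript length, so they compare libraries and do not say which mitofusin had more transcripts. On the log2 scale the ratio was 0.86 ± 0.04 against 0.22 ± 0.03, a difference of 0.64 or 1.56-fold. The difference was far larger than the SD between replicates, and its exact 2-sided permutation p was 0.1, the smallest that 20 assignments of 3 against 3 allow (0.2 adjusted over the 4 gene pairs compared).

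**Figure D2:**
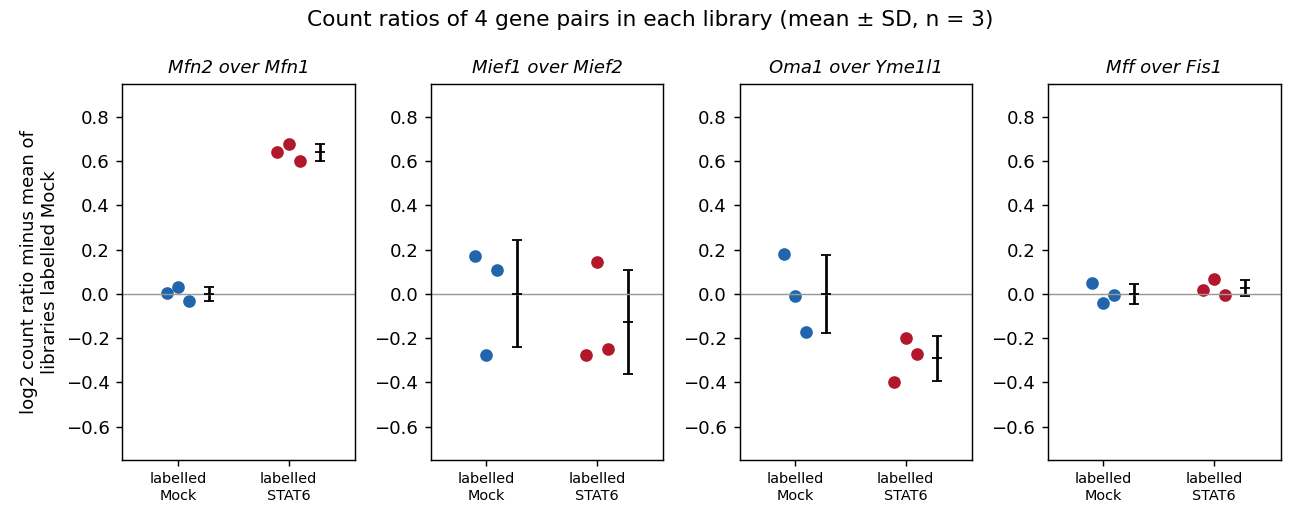
Log2 ratio of the counts of 2 genes in each library, minus the mean of the libraries labelled Mock, for 4 gene pairs; points are libraries and bars the mean and SD of 3. The Mfn2 to Mfn1 ratio is 0.64 higher in the libraries labelled STAT6, the Oma1 to Yme1l1 ratio is 0.29 lower, and the groups overlap for the other pairs.

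Opa1, the inner membrane fusion GTPase, was lower. It was at 124, 131 and 130.2 CPM in the libraries labelled STAT6 and at 152, 158 and 155 CPM in those labelled Mock. All 3 libraries labelled STAT6 were below all 3 labelled Mock, at 129 ± 3.72 against 155 ± 2.95 CPM. The fall was 1.21-fold, a log2 fold change of -0.27 with a 95% interval of -0.34 to -0.20 (edgeR, adjusted p = 1.49e-08). It did not pass against a change of at least 1.2-fold (glmTreat, adjusted p = 0.332). Counts per gene do not separate the splice forms of Opa1, and cleavage of the protein is not measured by RNA.

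The proteases that cleave OPA1 were measured with unequal precision. Oma1, a stress-activated protease, had only 148 to 235 counts a library. It was at 6.82, 7.63 and 7.35 CPM in the libraries labelled STAT6 and at 10.0, 8.45 and 7.69 CPM in those labelled Mock, so the groups did not overlap but the lowest library labelled Mock lay next to the highest labelled STAT6. Oma1 was 1.19-fold lower, with a log2 fold change of -0.26 and a wide 95% interval of -0.48 to -0.04 (edgeR, adjusted p = 0.0336). DESeq2 did not call Oma1 (adjusted p = 0.0939), nor did limma-voom (adjusted p = 0.0614). The edgeR call was lost without STAT6 replicate 1 (adjusted p = 0.121), STAT6 replicate 3 (0.0565) or Mock replicate 1, where the log2 fold change shrank to -0.15 (0.237). Over all alternatives its adjusted p ran from 0.00654 to 0.45.

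Yme1l1, the protease of the same membrane that cleaves OPA1 at another site, had 3589 to 5596 counts a library and did not pass. It was at 190.2, 185 and 188 CPM in the libraries labelled STAT6 and at 187, 179.6 and 183 CPM in those labelled Mock, and the groups overlapped. Its log2 fold change was 0.03, with a 95% interval of -0.03 to 0.10 (edgeR, adjusted p = 0.34). A change of the size seen for Mfn2 or Opa1 lies outside this interval. The ratio of Oma1 to Yme1l1 counts was 0.0359, 0.0412 and 0.0392 in the libraries labelled STAT6 and 0.0537, 0.047 and 0.042 in those labelled Mock. It was lower by a log2 difference of -0.29 without overlap (exact permutation test, 2-sided, p = 0.1, adjusted 0.2), and its SD was 0.10 in one group and 0.18 in the other.

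On the side of division, Dnm1l, the gene of the DRP1 GTPase, was slightly higher. It was at 180.5, 169 and 173 CPM in the libraries labelled STAT6 and at 165, 158 and 159 CPM in those labelled Mock. The lowest library labelled STAT6 was above the highest labelled Mock by a few CPM. The log2 fold change was 0.12, or 1.09-fold, with a 95% interval of 0.05 to 0.19 (edgeR, adjusted p = 0.00258). With library totals alone in place of TMM scaling the value was 0.04 and the call was lost (adjusted p = 0.256).

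Mff and Fis1, which encode tail-anchored outer membrane proteins, had the largest rises of the 10 genes. Mff, a receptor for DRP1, was at 141, 142 and 139 CPM in the libraries labelled STAT6 and at 104, 109 and 104 CPM in those labelled Mock. It was 1.33-fold higher, a log2 fold change of 0.41 with a 95% interval of 0.34 to 0.49 (edgeR, adjusted p = 1.05e-12). Both groups were tight and well apart, at 141 ± 1.14 and 106 ± 3.00 CPM. Fis1 was at 47.1, 45.7 and 47.2 CPM in the libraries labelled STAT6 and at 33.9, 37.9 and 35.3 CPM in those labelled Mock. It was 1.31-fold higher, with a log2 fold change of 0.39 and a 95% interval of 0.28 to 0.49 (edgeR, adjusted p = 1.88e-08). Both calls held against a change of at least 1.2-fold (glmTreat, adjusted p = 4.35e-05 for Mff and 0.00571 for Fis1), as did that of Mfn1 and no other of the 10. By that test 45% of all genes were called.

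The ratio of Mff to Fis1 counts was 2.99, 3.10 and 2.95 in the libraries labelled STAT6 and 3.06, 2.88 and 2.95 in those labelled Mock. The groups overlapped, and the log2 difference of 0.03 was smaller than the SD of 0.04 within each group (exact permutation test, 2-sided, p = 0.4, adjusted 0.533).

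The other receptors for DRP1 did not pass the test. Mief1, an outer membrane receptor, was at 35.9, 40.1 and 40.8 CPM in the libraries labelled STAT6 and at 34.9, 38.9 and 36.4 CPM in those labelled Mock, which overlapped. Its log2 fold change was 0.08, with a 95% interval of -0.03 to 0.19 (edgeR, adjusted p = 0.175). Without STAT6 replicate 1, its lowest library in that group, the value was 0.14 and passed (adjusted p = 0.0377). Mief2, the paralog of Mief1, was the least counted of the 10 genes with 82 to 127 counts a library, and was at 5.05, 4.23 and 5.64 CPM against 3.60, 5.47 and 3.92 CPM. The groups overlapped, and the log2 fold change of 0.21 had a 95% interval of -0.11 to 0.52 (edgeR, adjusted p = 0.227), so neither no change nor a rise of the size seen for Mff lies outside it. Without Mock replicate 2, the highest of its group, Mief2 was at 0.39 and passed (adjusted p = 0.0266). The log2 ratio of Mief1 to Mief2 counts was 2.98 ± 0.23 against 3.11 ± 0.24, a difference within the SD (exact permutation test, 2-sided, p = 0.8).

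**Figure D3:**
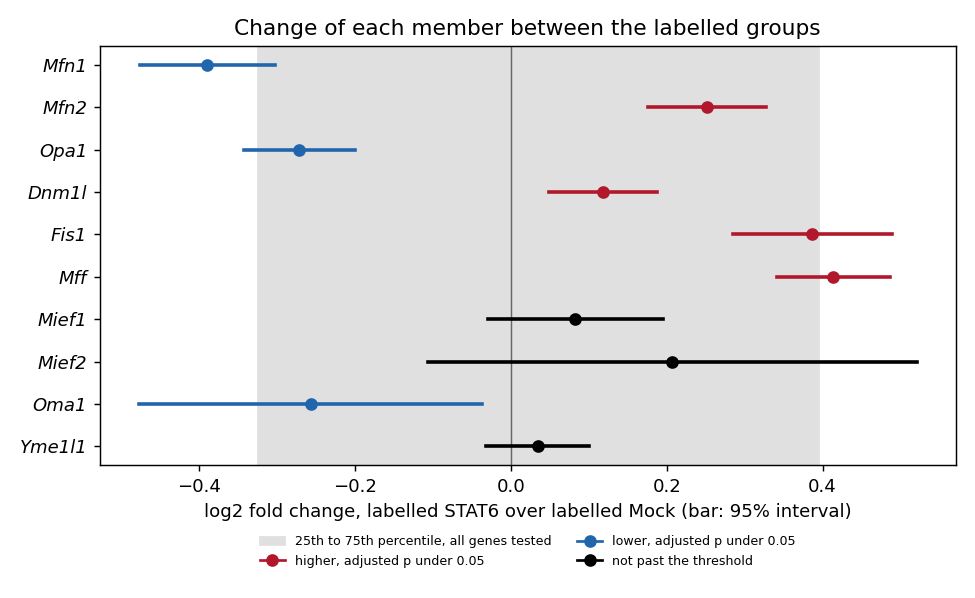
Log2 fold change of each gene between libraries labelled STAT6 and Mock, with its 95% interval from edgeR; red and blue mark genes called higher and lower, black those not called, and grey the 25th to 75th percentile of all 12938 genes tested (-0.32 to 0.40). Only Mfn1 and Mff lie outside the grey band, and Mief2 and Oma1 have the widest intervals.

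Set against the whole transcriptome, the changes were of ordinary size. A larger absolute log2 fold change than that of Mff was found in 43.3% of the genes tested, than that of Mfn1 in 45.8%, than that of Fis1 in 46.1% and than that of Mfn2 in 62.4%. Of the 10 genes, 3 exceeded the median absolute log2 fold change of all genes. The spread between libraries was small for most of these genes. The coefficient of variation of Mfn2 within a group was 1.27% and 1.64%, below the 2.28% that counting alone gives at its lowest count. For Mief2 it was 14.3% and 23.1%, where counting alone gives 11.0%, and for Oma1 it was 5.61% and 13.7%, where counting gives 8.22%.

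Genes that work with this machinery were described from 6 lists by role. They hold 86 genes present in the files, of which 81 were tested: 23 were higher, 41 lower and 17 not called. Their median log2 fold change was -0.10 and 79% were called, beside 72.6% of all genes. The counts of each list below stand beside 35.8% higher and 36.8% lower among all genes tested, and nothing particular to a list is read from them.

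Among partners of fusion and of OPA1 processing, 3 were higher and 8 lower of 12 tested (91.7% called, beside 72.6% of all genes), and the median on the log2 scale was -0.27. Stoml2, an inner membrane scaffold that binds cardiolipin and prohibitins, fell from 47.0 ± 0.399 to 24.1 ± 2.16 CPM, a log2 fold change of -0.96 (edgeR, adjusted p = 3.82e-17). Its libraries were at 26.4, 23.9 and 22.2 CPM against 47.0, 46.6 and 47.4 CPM. Slc25a46, an outer membrane protein of the carrier family that interacts with the fusion machinery, rose from 154 ± 1.36 to 209 ± 7.76 CPM, a log2 fold change of 0.44 (edgeR, adjusted p = 4.64e-14). Phb2, a prohibitin that holds inner membrane proteases, fell from 258 ± 5.69 to 208 ± 2.62 CPM, a log2 fold change of -0.31 (edgeR, adjusted p = 8.97e-11). Pld6, an outer membrane lipase, was listed at 0 in all libraries and was not tested.

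Among cofactors of division, 4 were higher and 3 lower of 9 tested, and the median log2 fold change was 0.07. Inf2, a formin that builds actin at sites of division, rose from 59.0 ± 2.05 to 114 ± 0.257 CPM, with a log2 fold change of 0.94 (edgeR, adjusted p = 1.3e-21). Its 3 libraries labelled STAT6 lay between 113 and 114 CPM and those labelled Mock between 57.3 and 61.3 CPM. Cttn, the actin-binding protein cortactin, was also higher, with a log2 fold change of 0.63 (edgeR, adjusted p = 2.79e-19). Spire1, an actin nucleator with a form that sits on mitochondria, was lower, with a log2 fold change of -0.49 (edgeR, adjusted p = 4.61e-13).

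Enzymes and scaffolds that modify DRP1, MFF or the mitofusins were split, with 6 higher and 8 lower of 20 tested and a median log2 fold change of -0.04. Pink1, a kinase that phosphorylates MFN2 and ubiquitin on damaged mitochondria, was at 33.3, 31.2 and 35.3 CPM in the libraries labelled STAT6 and at 16.8, 13.3 and 13.7 CPM in those labelled Mock. It was 2.29-fold higher without overlap, a log2 fold change of 1.19 (edgeR, adjusted p = 4.36e-15). Prkaa1 and Prkaa2, the catalytic subunits of AMP-activated protein kinase, for which MFF is a substrate, were both lower. Their log2 fold changes were -0.58 (edgeR, adjusted p = 1.87e-16) and -0.81 (edgeR, adjusted p = 4.81e-10).

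Genes of cristae organisation and outer membrane sorting had 2 higher and 8 lower members of 12 tested, so 83.3% were called beside 72.6% of all genes. The median was -0.24 on the log2 scale, within a range from -0.49 to 0.39. Chchd3, a subunit of the cristae organising complex that works next to OPA1, was at -0.34. Samm50, the core of the outer membrane sorting complex, was at -0.38 and Mtx1, its partner, at -0.49. All 3 passed with edgeR, at adjusted p from 2.52e-11 for Chchd3 to 2.4e-08 for Mtx1.

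For cardiolipin, the inner membrane lipid that OPA1 binds, 2 genes were higher and 7 lower of 12 (75% called, beside 72.6% of all genes), and the median log2 fold change was -0.13. Prelid1, which carries the precursor phosphatidate across the space between the membranes, fell from 250.5 ± 8.86 to 162 ± 4.67 CPM, a log2 fold change of -0.63 (edgeR, adjusted p = 4.61e-18). Tamm41, an early enzyme of cardiolipin synthesis, was at -0.65 (edgeR, adjusted p = 6.68e-13). Plscr3, a mitochondrial scramblase, rose from 14.2 ± 0.443 to 29.5 ± 2.06 CPM, a log2 fold change of 1.05 (edgeR, adjusted p = 3.08e-16).

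Genes of mitochondrial transport and of contacts with the endoplasmic reticulum had 6 higher and 7 lower members of 16 tested, with a median log2 fold change of -0.07. Rhot1, the outer membrane GTPase that links mitochondria to motor proteins, was lower at -0.72 (edgeR, adjusted p = 2.74e-16). Itpr2, a calcium channel of the endoplasmic reticulum, was 2.74-fold higher, at 61.2 to 66.0 CPM against 22.6 to 24.6 CPM (edgeR, adjusted p = 1.04e-23).

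**Figure D4:**
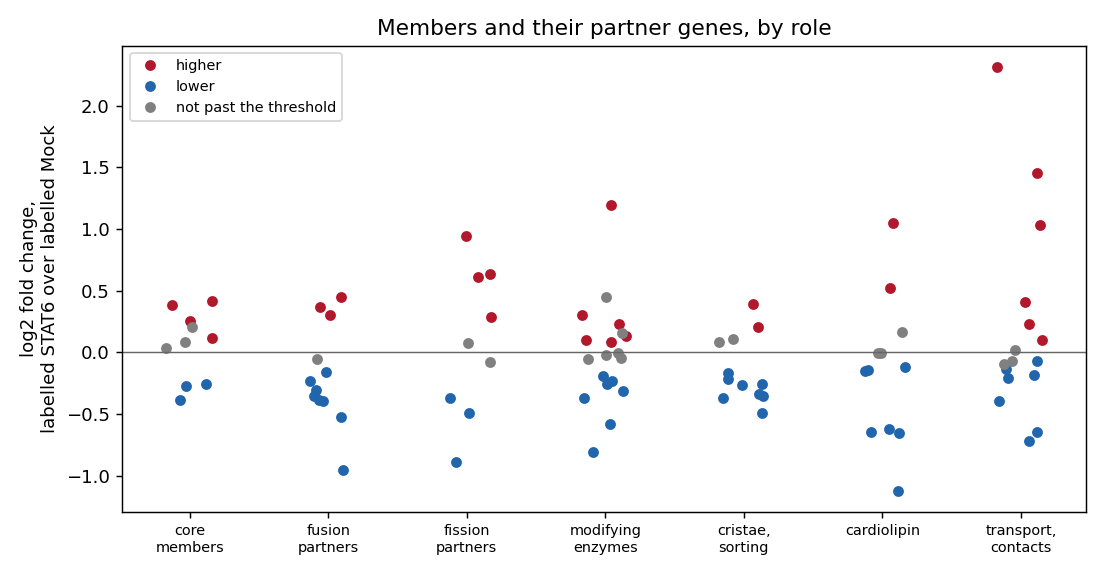
Log2 fold change (libraries labelled STAT6 over Mock) of the 10 core genes and of the tested genes in the 6 partner lists, 1 point a gene, red for higher, blue for lower and grey for not called; Ppp2r2b, with 1 count in the group labelled STAT6 and 48 in the group labelled Mock, is left out. The core genes span -0.39 to 0.41, while single partners such as Stoml2 (-0.96), Pink1 (1.19) and Itpr2 (1.45) lie farther from 0.

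The genes with profiles most like Mfn2 and Mfn1 were sought among 8709 other named genes with a mean of at least 10 CPM, by the root mean square difference of mean-centred log2 CPM over the 6 libraries. Among the nearest to Mfn2 were Acadl (0.0162), Sec62 (0.0172), Sgsh (0.0174) and Gng5-ps (0.0178). Nearest to Mfn1 were Macroh2a1 (0.0105), Sdhb (0.0143), Ppa1 (0.0146), Smpd4 (0.0148) and Rpsa (0.0157). Choosing by profile brings their log2 fold changes close to that of the gene they resemble, so nothing is read from this closeness. The values were between 0.23 and 0.25 for the first set and between -0.40 and -0.37 for the second.

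**Figure D5:**
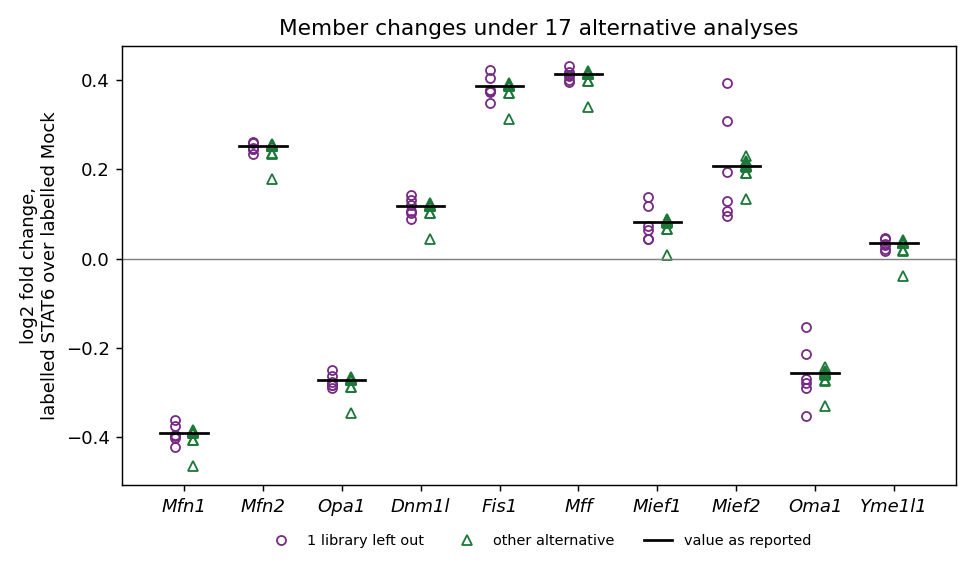
Log2 fold change of each gene as reported (black line), with 1 library left out (circles) and under the other alternative analyses (triangles), 17 in all. The values of Mfn1, Opa1 and Oma1 stay below 0 and those of Mfn2, Dnm1l, Fis1, Mff, Mief1 and Mief2 above it, while Yme1l1 reaches -0.04 with library totals alone.

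Across 17 alternative analyses, Mfn1, Fis1 and Mff kept their direction and their call in each. Mfn1 ran from -0.46 to -0.36, Fis1 from 0.31 to 0.42 and Mff from 0.34 to 0.43 on the log2 scale. Mfn2 (0.18 to 0.26) and Opa1 (-0.35 to -0.25) kept theirs in all but the test against a change of 1.2-fold.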

How the data were processed

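Per the file headers, the authors deposited 1 whole-number count per gene symbol for each of 6 libraries, and no normalized value. FastQC, STAR, Salmon and edgeR are listed in the submitters' processing notes with no version, beside GRCh37, a human build; which of them counted the reads, and with what strand setting, is not given in the sources used here. Per the labels' protocols, libraries came from a stranded mRNA kit. Because the symbols are of mouse form and the reference used here is human, no coordinates, transcript lengths or sequences are given, and levels are not compared between genes.

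Totals were 19894773 to 29802693 counts a library, with 17287 to 19367 genes detected. TMM factors lay between 0.968 and 1.03. Within a group, 2 libraries differed by 1.44 to 2.50 times counting noise (median chi-square), so none was a copy of another. Counts were analysed with edgeR 4.0.16 in R 4.3.3: filterByExpr, TMM, glmQLFit with robust = TRUE and the 2-sided glmQLFTest with group as the only term, adjusted by Benjamini-Hochberg over 12938 genes. CPM are scaled by the TMM-adjusted totals. Ratios of gene pairs were compared by an exact permutation test over libraries. Intervals are 95% intervals. The fit was tested on simulated data in which few genes changed. That setting differs from these libraries, where 72.6% of genes were called.

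The 10 genes and the lists were chosen with earlier results of these data known. All 10 genes are named, as are the 3 members of each list with the smallest adjusted p, the 5 nearest profiles of Mfn1 and Mfn2, and the checks of the labels; Pld6 and Ppp2r2b were named after their values were seen, and some genes that this rule takes are not reported here. Of 93 list entries, 7 were other spellings without a row of their own. The alternatives were DESeq2 1.42.0 (and its size factors in edgeR), library totals alone, upper-quartile scaling, no filter, a filter of 1 CPM in 3 libraries, limma-voom (limma 3.58.1), a replicate block, mtDNA genes and Gm26917 left out, glmTreat at 1.2-fold, an adjusted p of 0.01 and each library left out.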

Additional observations from a re-analysis of the deposited data

How the results depend on the processing

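Of 170 values of the 10 genes under 17 alternatives, 156 kept their direction and their side of the threshold, 11 lost the call, 2 gained it and 1 changed sign. The sign changed for Yme1l1, not called in any of them, at -0.0391 with library totals alone; the cause was not tested. That scaling moved the median log2 fold change of all genes to -0.08 from -0.00. The test against a change of 1.2-fold called 3 of the 10 genes (2 higher and 1 lower) in place of 7, 35 of the partner genes in place of 64, and 5821 of all genes in place of 9399, since by construction it asks for more than a difference from 0. Oma1 alone was lost at an adjusted p of 0.01, which left 6 genes. Leaving out 1 library at a time gave 6 to 8 called genes of the 10, 4 or 5 higher and 2 or 3 lower, 60 to 64 partner genes and 9042 to 9476 of all genes. The difference in the log2 ratio of Mfn2 to Mfn1 then ran from 0.62 to 0.66, of Oma1 to Yme1l1 from -0.38 to -0.20, of Mief1 to Mief2 from -0.27 to -0.04 and of Mff to Fis1 from 0.01 to 0.05. Adding 0.5 to each count before the ratio changed the Mfn2 to Mfn1 difference by less than the SD between libraries, as it did for the other pairs. The 18 named partner genes kept direction and call in 305 of 306 values; Phb2 lost its call in the test against 1.2-fold (adjusted p = 0.0503).

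Same-numbered libraries of the groups deviated together only weakly across genes (correlations of 0.0519, 0.102 and 0.031), and the numbers were not taken as pairs. Yet 5 of 6 libraries correlated best with their own number, and whether the numbers mark pairs was not tested. With the replicate block 7 of the 10 genes were again called, 4 higher and 3 lower, and 9422 of all genes; Mfn2 was at 0.25 and Mfn1 at -0.39. Depth limits Mief2 and Oma1 most, at 82 to 127 and 148 to 235 counts a library.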

Other observations

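The summed CPM of Mfn1 and Mfn2 overlapped between the groups, whereas the share of Mfn2 in the mitofusin counts did not. Both were described after the values were seen and have no test of their own. The share restates the ratio of Mfn2 to Mfn1 counts reported above, so its lack of overlap follows from that ratio. Mfn1 and Mfn2 together were at 157, 156 and 155 CPM in the libraries labelled STAT6 and at 157, 153 and 161 CPM in those labelled Mock. The group means were 156 ± 0.809 and 157 ± 4.19 CPM (SD, n = 3), and the groups overlapped. Mfn2 made up 64.5%, 65.1% and 63.8% of the mitofusin counts in the libraries labelled STAT6 and 53.9%, 54.3% and 53.2% in those labelled Mock. The exact binomial 95% intervals, which cover counting error only, reached down to 62.1% in the first group and up to 56.0% in the second. Counts were not divided by transcript length, so the sums and these shares describe reads and not molecules. Similar sums therefore do not show a similar number of mitofusin transcripts.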
